A study of Mus musculus with 22 samples.

Results

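The opioid receptor genes Oprm1, Oprd1, Oprk1 and Oprl1 encode the mu, delta and kappa opioid receptors and the nociceptin/orphanin FQ receptor. They were found by symbol in the count table, where they are 4 of 24061 genes, and all 4 were among the 14564 genes that passed a filter on low counts. The RNA came from the nucleus accumbens, the ventral part of the striatum, of conventionally raised, group-housed male C57BL/6J mice aged 7 to 9 weeks. Mice drank either water or nonabsorbable antibiotics, a treatment that depletes gut bacteria, and were treated with saline or with morphine at 20 mg/kg per day for 7 days. The 4 groups were water with saline (6 libraries), water with morphine (5 libraries), antibiotics with saline (6 libraries) and antibiotics with morphine (5 libraries). The labels name neither the antibiotics nor their dose, and do not say whether a library is 1 animal or when tissue was taken after the last dose, so p-values measure the spread between libraries.

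All 4 receptors couple to G proteins of the Gi/o class, which lower cyclic AMP through adenylyl cyclase, open GIRK potassium channels and close presynaptic calcium channels. The mu receptor is the main target of morphine and is dense in the striatal patches called striosomes. Enkephalins act on the mu and delta receptors, dynorphins on the kappa receptor and nociceptin on the receptor encoded by Oprl1, which binds morphine poorly.

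The sequence before the annotated start differed in make-up between Oprm1, which passed the test with morphine under water, and Oprd1, which passed in no comparison, so both are shown, from RefSeq on GRCm38.p6. Windows of 250 bases before a start were matched by symbol for 3 of the 4 receptors (Oprm1, Oprd1 and Oprl1). Capitals mark GGGCGG, read on either strand (CCGCCC on the other), a motif that 32.7% of 32851 mouse windows of the same length hold.
Oprm1, chr10:6788320-6788569, plus strand: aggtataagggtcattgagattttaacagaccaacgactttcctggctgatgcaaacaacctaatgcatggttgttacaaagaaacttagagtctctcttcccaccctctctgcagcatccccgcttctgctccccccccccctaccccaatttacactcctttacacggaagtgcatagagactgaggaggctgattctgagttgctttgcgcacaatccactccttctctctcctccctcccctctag
Oprd1, chr4:132144487-132144736, minus strand: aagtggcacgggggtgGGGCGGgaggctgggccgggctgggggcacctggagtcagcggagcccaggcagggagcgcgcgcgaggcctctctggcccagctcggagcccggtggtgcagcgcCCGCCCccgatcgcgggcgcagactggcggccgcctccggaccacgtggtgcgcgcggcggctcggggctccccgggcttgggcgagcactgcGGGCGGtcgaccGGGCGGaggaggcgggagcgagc
The Oprm1 window, the second of 3 listed, held 4 CpG dinucleotides at a GC content of 50%, and none of the motif. The Oprd1 window held 34 CpG dinucleotides at a GC content of 80%, the 98.8th percentile of all windows, and 4 copies of the motif. TATAAA, which 12.4% of windows hold, was in neither, and was found once in the first Oprl1 window. TGACGTCA (1.55% of windows) and TGACTCA (4.46%) were in none of the windows of these 3 genes. Both strands were searched for each motif, and a match is a description of these letters only. Whether the make-up of these windows goes with the morphine results was not tested.

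Library totals ran from 11789713 to 19755139 counts, of which 9357299 to 15330947 fell in genes. Striatal markers were present in every library. Ppp1r1b, the DARPP-32 gene of projection neurons, was at 703 to 1468 CPM (reads of a gene scaled to library size, with TMM factors). Drd2 was at 68.5 to 192 CPM. Cortical tissue was present to a varying degree, since Slc17a7, which marks cortical glutamatergic neurons, ran from 3.48 to 1238 CPM and Neurod6 from 0 to 34.3 CPM. In the antibiotic-saline group the highest Slc17a7 value (1238 CPM) was above the lowest Ppp1r1b value (705 CPM). The same held in the water-morphine group (986 and 703 CPM). Water-morphine library 4 and antibiotic-saline library 5 had the highest scores for cortical and septal markers (1.11 and 1.19, as mean log2 deviation). They also had the lowest scores for projection neuron markers (-0.42 and -0.75), so striatal content varied between libraries. Antibiotic-saline library 6 stood apart with 15.4% of its counts outside genes, against 8.97 to 12.5% in the other libraries. These 3 libraries recur below, and results that rest on them are given with and without them.

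Per kilobase of its longest coding transcript, Oprl1 was the most abundant receptor transcript and Oprm1 the least abundant in all 4 groups. In the water-saline group the levels were 17.8 ± 2.43 CPM per kilobase for Oprl1, 8.31 ± 1.35 for Oprk1, 5.67 ± 0.892 for Oprd1 and 1.52 ± 0.314 for Oprm1 (SD, n = 6). The SD ranges of neighbours in this order did not meet in that group, but those of Oprk1 (7.88 ± 2.17, SD, n = 6) and Oprd1 (5.96 ± 1.18, SD, n = 6) met in the antibiotic-saline group. The place of Oprd1 and Oprk1 depends on the length used: over the union of all exons Oprk1 was at 4.25 ± 0.687 CPM per kilobase, below Oprd1 at 5.67 ± 0.892 (SD, n = 6). Among all genes tested, the mean CPM of Oprm1 stood at the 20.0th percentile, that of Oprd1 at the 47.3rd, that of Oprk1 at the 61.2nd and that of Oprl1 at the 70.9th.

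**Figure D1:**
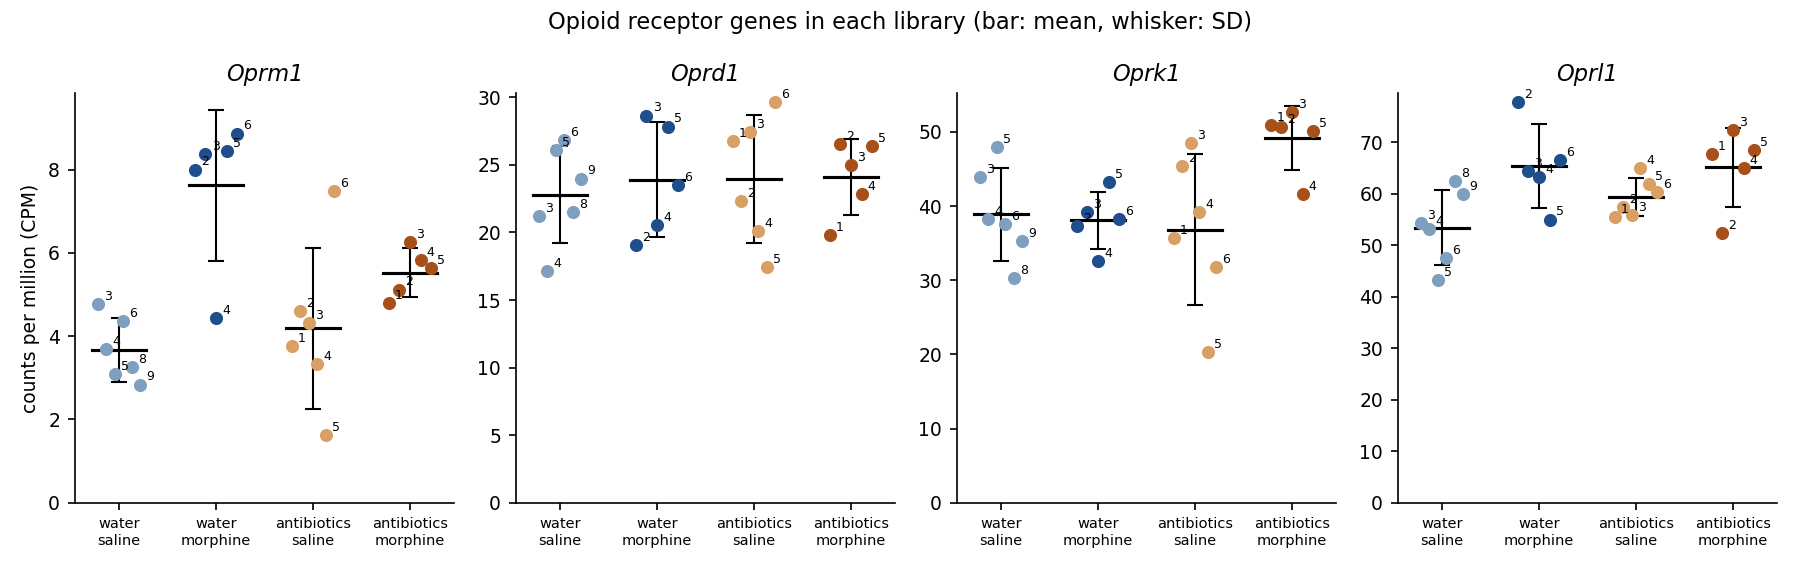
CPM of each receptor gene (y axis, from 0) in every library, by group (x axis), with library numbers beside the points. Horizontal bars are group means and whiskers SD. For Oprm1, 4 of the 5 water-morphine libraries sit at 7.997 to 8.86 CPM, above all water-saline libraries, and library 4 sits at 4.43.

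The mu receptor gene Oprm1 rose in the mice given morphine with water. In the water-saline group it ran from 2.84 through a median of 3.47 to 4.77 CPM (29 to 58 reads). In the water-morphine group, libraries 2 to 6 had 7.997, 8.38, 4.43, 8.45 and 8.86 CPM (68 to 112 reads). So 4 of 5 morphine libraries lay above every saline library, while library 4, the one with most cortical marker RNA in its group, lay inside the saline range. The fold was 2.06 (95% interval 1.48 to 2.88, log2 difference 1.04 ± 0.23 SE), with an adjusted p of 0.0108 by edgeR's quasi-likelihood test. The labels state no pairing by replicate number, but with that number as a block the call was lost, as given in the last section. In this comparison 6.58% of all genes tested passed, and the Oprm1 difference was larger in size than that of 99.7% of them. With antibiotic-saline libraries 5 and 6 and water-morphine library 4 left out, a choice made after the values were seen, the log2 difference was 1.19 ± 0.13. Library 4 was the low extreme of the water-morphine group, so its removal raises the difference and narrows the spread by construction.

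A measure taken over all genes of a library moved with this result. The length slope of a library, the slope of its log2 CPM deviations on log2 transcript length, ran from -0.0780 to -0.0111 in water-saline libraries and from 0.0280 to 0.0468 in water-morphine libraries, with no overlap. With the slope as a covariate the Oprm1 difference was 0.41 ± 0.37 (adjusted p = 0.854, edgeR), and 0 of all 14564 genes passed in that edgeR fit (1032 at an unadjusted p under 0.05), against 959 without it. The slope and morphine cannot be told apart in this comparison. With the cortical and septal score as covariate instead, Oprm1 kept a log2 difference of 0.91 ± 0.22 (adjusted p = 0.0109, edgeR). In bulk tissue, a change in the number of cells that make a transcript and a change in RNA per cell cannot be told apart.

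In antibiotic-treated mice the Oprm1 groups were closer. Antibiotic-saline libraries ran from 1.62 (library 5) through a median of 4.04 to 7.48 CPM (library 6), on 15 to 88 reads. Antibiotic-morphine libraries 1 to 5 had 4.79, 5.12, 6.26, 5.83 and 5.63 CPM (53 to 79 reads). All 5 lay above the antibiotic-saline mean of 4.19 ± 1.92 CPM (SD, n = 6) but within that group's range. The fold of 1.30 (95% interval 0.928 to 1.83) did not pass, with an adjusted p of 0.311 by edgeR, where 13.0% of genes passed. This comparison rests on antibiotic-saline library 6: without it the log2 difference was 0.63 ± 0.21 in place of 0.38 ± 0.24, with an adjusted p of 0.04996 by edgeR, just under the threshold. Library 6 was the high extreme of its group, so its removal raises the difference by construction. Without the 3 libraries that stand apart the log2 difference was 0.46 ± 0.15 (adjusted p = 0.0363, edgeR). That choice leaves out the lowest and highest antibiotic-saline values, which narrows the spread by construction. With the length slope as covariate the log2 difference was -0.02 ± 0.29.

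The 2 Oprm1 changes with morphine were not shown to differ. Their difference, antibiotics minus water, was -0.66 ± 0.33 on the log2 scale (95% interval -1.35 to 0.03, adjusted p = 0.426 by edgeR), in a test that 0.467% of genes passed. Averaged over both drinking groups, Oprm1 was 1.64-fold higher with morphine (95% interval 1.29 to 2.08, adjusted p = 0.00424 by edgeR), where 21.3% of genes passed. With the length slope as covariate this average was 0.19 ± 0.29 on the log2 scale (adjusted p = 0.878, edgeR).

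In the main fit antibiotics left no detectable change in Oprm1 under either injection. Under saline the fold was 1.16 (95% interval 0.821 to 1.63, adjusted p = 0.699 by edgeR), where 1.41% of genes passed, and without antibiotic-saline library 6 the log2 difference changed sign, from 0.21 to -0.05. Under morphine all 5 antibiotic libraries lay below the water-morphine mean of 7.62 ± 1.81 CPM (SD, n = 5), although water-morphine library 4 lay below them all. The fold there was 0.730 (95% interval 0.523 to 1.02, adjusted p = 0.183 by edgeR), where 18.0% of genes passed. Without the 3 libraries that stand apart the log2 difference was -0.61 ± 0.13 and passed (adjusted p = 0.00234, edgeR), but library 4 was the low extreme of its group, so its removal raises the reference by construction. With all libraries kept, the comparison also passed with the share outside genes as covariate and by limma-voom with quality weights. In 12 of 15 alternative settings it kept its direction and did not pass.

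One annotated gene with reads in the table shares the Oprm1 locus on the opposite strand. Ipcef1, which encodes an interactor of cytohesin exchange factors, overlaps Oprm1 over 152403 bases, of which 96 are exonic in both, and whether counting used strand is not given in the sources used here. Ipcef1 was highest in antibiotic-saline library 5 (76.1 CPM) and water-morphine library 4 (64.0 CPM), the libraries with the lowest Oprm1 in their groups. Its log2 difference between morphine and saline under water was 0.50 ± 0.36 (adjusted p = 0.446, edgeR).

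**Figure D2:**
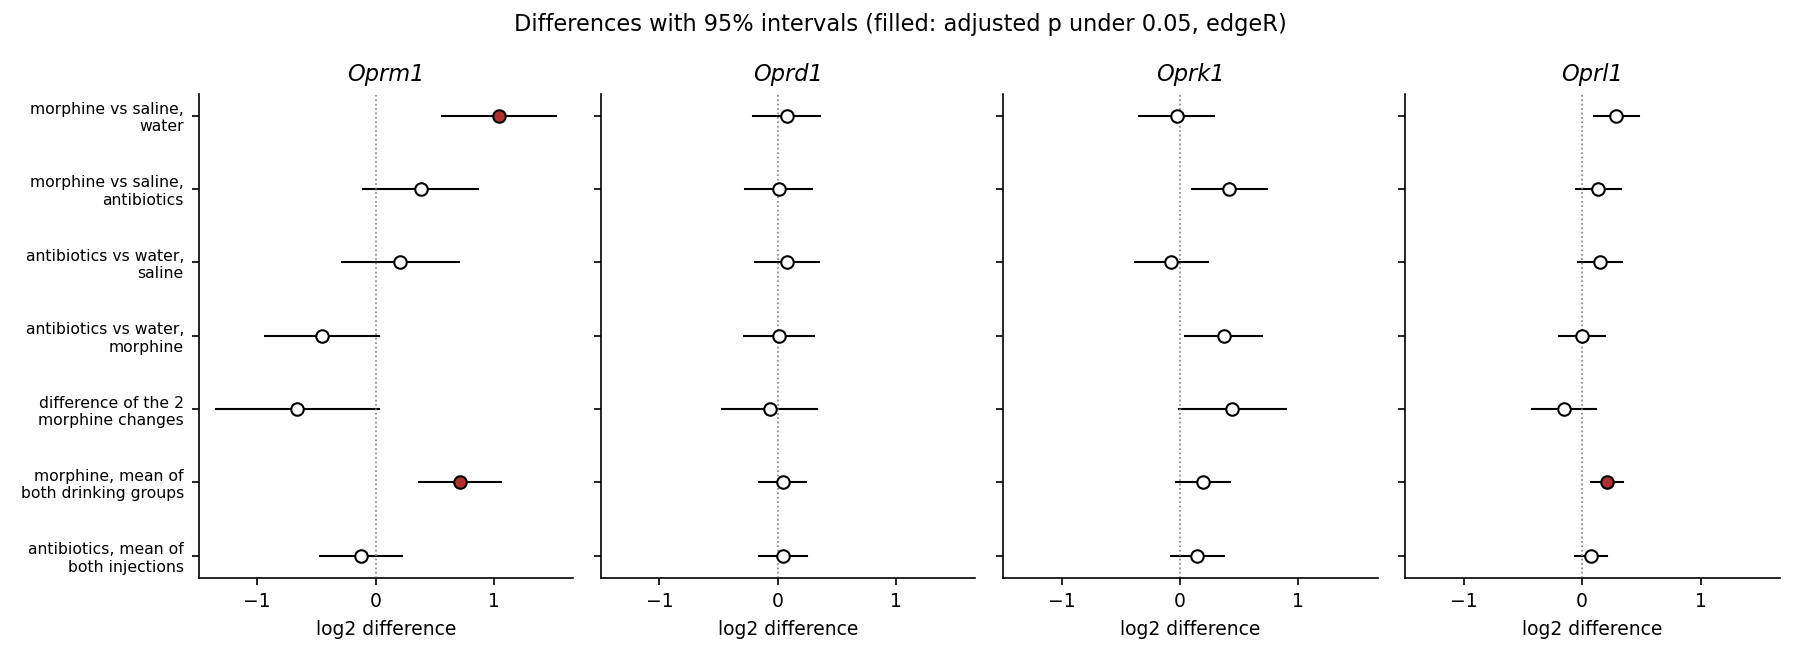
Log2 differences (x axis) of the 4 receptor genes for 7 comparisons (y axis), with 95% intervals as lines. Filled points passed at an adjusted p under 0.05 by edgeR: Oprm1 for morphine under water and for the morphine average, and Oprl1 for the morphine average.

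The delta receptor gene Oprd1 had much the same mean in the 4 groups. Its mean was 22.8 ± 3.59 CPM in the water-saline group (SD, n = 6), 23.9 ± 4.28 in the water-morphine group (SD, n = 5), 24.0 ± 4.74 in the antibiotic-saline group (SD, n = 6) and 24.1 ± 2.82 in the antibiotic-morphine group (SD, n = 5). Single water-morphine libraries 2 to 6 had 19.0, 28.7, 20.5, 27.8 and 23.5 CPM, and antibiotic-morphine libraries 1 to 5 had 19.8, 26.5, 25.0, 22.8 and 26.4 CPM. The ranges overlapped throughout, since water-saline libraries ran from 17.2 through a median of 22.8 to 26.8 CPM and antibiotic-saline libraries from 17.4 through 24.5 to 29.7 CPM. No Oprd1 comparison passed, with adjusted p-values from 0.783 to 0.979 by edgeR. The intervals bound the size: morphine under water gave a fold of 1.05 (95% interval 0.866 to 1.28) and morphine under antibiotics 1.01 (0.827 to 1.22).

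The kappa receptor gene Oprk1 was highest in the antibiotic-morphine group, without passing the test. Antibiotic-morphine libraries 1 to 5 had 50.9, 50.6, 52.6, 41.6 and 50.1 CPM. Antibiotic-saline libraries ran from 20.3 (library 5) through a median of 37.5 to 48.5 CPM. So 4 of 5 libraries with morphine lay above every antibiotic-saline library, and library 4 lay among them. The fold was 1.33 (95% interval 1.07 to 1.66), with an adjusted p of 0.0759 by edgeR. The estimate depends on antibiotic-saline library 5, which had the lowest projection neuron marker score of all (-0.75): without it the log2 difference was 0.30 ± 0.12 in place of 0.42 ± 0.15 (adjusted p = 0.0975, edgeR), and without the 3 libraries that stand apart it was 0.22 ± 0.11 (adjusted p = 0.173, edgeR). Without antibiotic-saline library 3, which had the highest Oprk1 of its group, it was 0.51 ± 0.15 and passed (adjusted p = 0.0329, edgeR). DESeq2 (adjusted p = 0.0424) and limma-voom (adjusted p = 0.0411) put the comparison on the other side of the threshold.

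Morphine under water did not move Oprk1 detectably. Water-morphine libraries 2 to 6 had 37.2, 39.2, 32.6, 43.2 and 38.3 CPM, inside the water-saline range of 30.3 to 48.0 CPM around a median of 37.9. The fold was 0.981 (95% interval 0.787 to 1.22, adjusted p = 0.943 by edgeR). Antibiotics under morphine gave a fold of 1.29 (95% interval 1.03 to 1.62, adjusted p = 0.111 by edgeR), a comparison that shares the antibiotic-morphine libraries with the one above. Only water-morphine library 5, at 43.2 CPM, lay above the lowest antibiotic-morphine library. In a fit of these 2 groups alone the adjusted p was 0.00736, and with the cortical and septal score as covariate it was 0.0130 (edgeR). The difference between the morphine changes in antibiotic-treated and water-drinking mice was 0.44 ± 0.22 on the log2 scale (adjusted p = 0.414, edgeR).

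The nociceptin receptor gene Oprl1 was slightly higher with morphine when both drinking groups were averaged. Water-saline libraries ran from 43.2 through a median of 53.7 to 62.5 CPM. Water-morphine libraries 2 to 6 had 77.8, 64.5, 63.3, 55.0 and 66.5 CPM, so 4 of 5 lay above every water-saline library and library 5 did not. Antibiotic-saline libraries ran from 55.5 through 58.9 to 64.97 CPM, and antibiotic-morphine libraries 1 to 5 had 67.7, 52.3, 72.4, 64.96 and 68.5 CPM. Here library 2 lay below every antibiotic-saline library, 3 of 5 lay above them all, and library 4 lay level with the highest.

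The morphine average for Oprl1 was 1.16-fold (95% interval 1.05 to 1.27), with an adjusted p of 0.0235 by edgeR. This call sits near the threshold: it was lost without water-morphine library 2 (adjusted p = 0.0501, edgeR) and without antibiotic-morphine library 3 (adjusted p = 0.0503, edgeR). With the length slope as covariate the log2 difference was 0.29 ± 0.13 in place of 0.21 ± 0.07, with an adjusted p of 0.544 by edgeR. Taken singly, morphine under water gave 1.22-fold (95% interval 1.07 to 1.39, adjusted p = 0.0616 by edgeR), which passed by DESeq2 (adjusted p = 0.0340) and, by edgeR, without water-saline library 8 (adjusted p = 0.0430) or water-morphine library 5 (adjusted p = 0.0355). Morphine under antibiotics gave 1.10-fold (0.962 to 1.252, adjusted p = 0.368 by edgeR). Antibiotics changed Oprl1 detectably under neither injection (folds of 1.11 under saline and 0.998 under morphine, adjusted p-values of 0.398 and 0.9901 by edgeR).

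Averaged over both injections, antibiotics moved no receptor past the test, with adjusted p-values from 0.349 (Oprk1) to 0.783 (Oprd1) by edgeR, where 22% of genes passed. No receptor had groups free of overlap in any of the 4 simple comparisons. Over all genes, groups were free of overlap for 5.84% with morphine under water, 6.30% with morphine under antibiotics, 1.64% with antibiotics under saline and 13.1% with antibiotics under morphine.

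**Figure D3:**
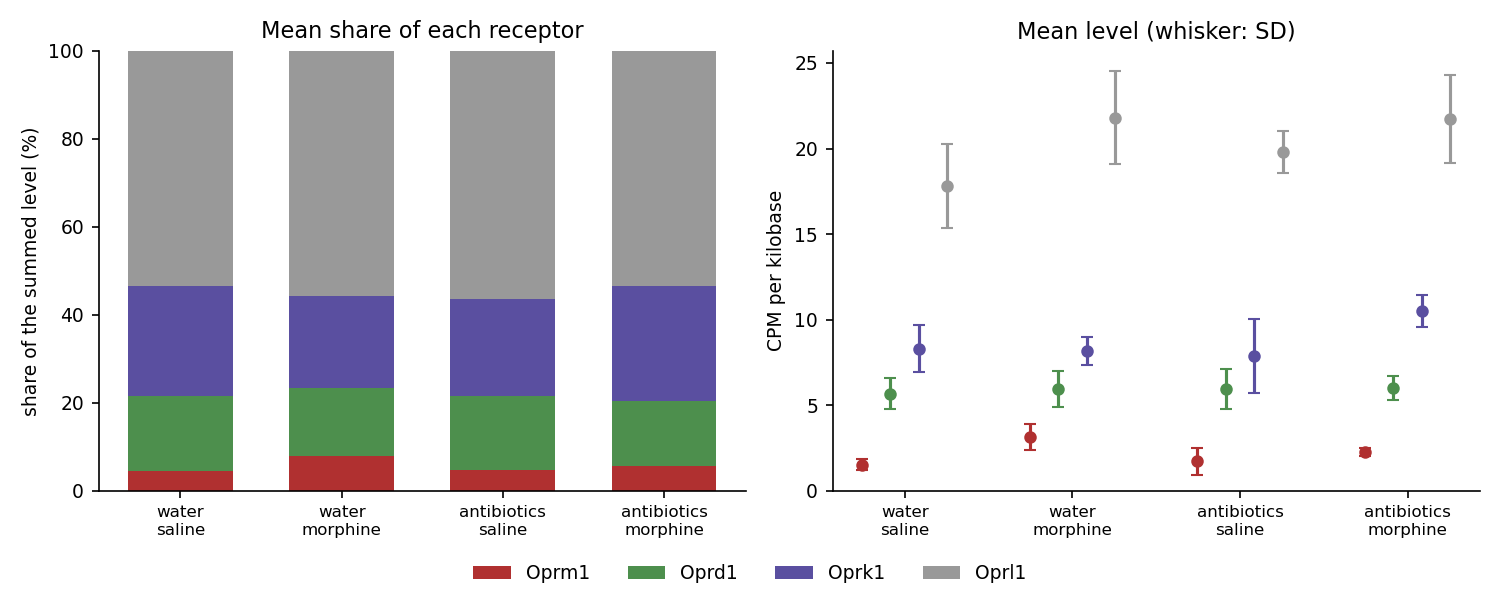
Left, mean share of each receptor gene in the summed level of the 4 (percent), by group. Right, mean CPM per kilobase of the longest coding transcript, with SD whiskers. The Oprm1 share is 4.56% in the water-saline and 8.01% in the water-morphine group, and Oprl1 holds more than any other receptor in every group.

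The make-up of receptor transcripts also depends on the length used. Per kilobase of the longest coding transcript, Oprm1 made up 4.56 ± 0.944% of the summed receptor level in the water-saline group (SD, n = 6) and 8.01 ± 1.64% in the water-morphine group (SD, n = 5). In antibiotic-treated mice its share was 4.795 ± 1.99% with saline (SD, n = 6) and 5.64 ± 0.490% with morphine (SD, n = 5). Oprl1 held 53.4 to 56.4% on average in each group, Oprk1 20.9 to 26.0% and Oprd1 14.8 to 17.04%. Over the union of exons the Oprm1 shares were lower, 1.86 ± 0.406% in the water-saline group (SD, n = 6) and 3.31 ± 0.711% in the water-morphine group (SD, n = 5), and Oprd1 (23.1 ± 3.796%) stood above Oprk1 (17.4 ± 3.29%) in the water-saline group (SD, n = 6). The ratio of Oprm1 to Oprd1 reads, which needs no scaling between libraries, was 0.165 ± 0.0460 in the water-saline group (SD, n = 6) and 0.322 ± 0.0792 in the water-morphine group (SD, n = 5).

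Over the 22 libraries Oprm1, Oprd1 and Oprk1 were positively related to each other, and Oprl1 was less so. The 6 pairwise correlations of log2 CPM ran from -0.29 (Oprd1 with Oprl1) to 0.44 (Oprm1 with Oprd1), as a description over libraries that differ in group, dissection and depth. Among Oprm1, Oprd1 and Oprk1 they were 0.37 to 0.44, and 0.41 to 0.55 on deviations from group means. Oprl1 gave -0.06 with Oprm1, -0.48 with Oprd1 and -0.37 with Oprk1 on those deviations. The spread beyond counting error also differed: the biological coefficient of variation was 24.1% for Oprm1, 17.2% for Oprk1, 15.0% for Oprd1 and 10.4% for Oprl1.

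Each receptor was set against 6 library measures, giving 24 relations over the 22 libraries. On the length slope the libraries fell into separate clusters, with all morphine libraries and antibiotic-saline library 6 above 0 and the other saline libraries below, so no pooled correlation is given. Within the 12 saline libraries Oprm1 and the slope gave r = 0.43 (permutation p = 0.155, adjusted 0.621 over 8 relations) and rho = 0.34 (permutation p = 0.287, adjusted 0.699), and r was -0.01 without the 2 libraries farthest from the median slope. Within the 10 morphine libraries r was -0.36 (permutation p = 0.305, adjusted 0.653) and rho -0.42 (permutation p = 0.232, adjusted 0.699), with r = -0.64 without the 2 farthest. On deviations from the 4 group means, over all 22 libraries, r was 0.36. Neither p within an injection passed, which does not show that Oprm1 and the slope are unrelated.

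Oprl1 and Oprk1 were related in opposite directions to the projection neuron marker score, the mean log2 deviation of 19 marker genes. Oprl1 fell with it (r = -0.59, permutation p = 0.00462, adjusted 0.0483, and rho = -0.73, permutation p = 0.00024, adjusted 0.00576). Without the 2 libraries farthest from the median score r was -0.80, and on deviations from group means -0.52. Oprk1 rose with it over all libraries (r = 0.60, permutation p = 0.00604, adjusted 0.0483, rho = 0.31, permutation p = 0.154, adjusted 0.284), but r was 0.15 without the 2 farthest libraries, so the pooled relation rests on those. On deviations from group means r was 0.87 for Oprk1, with antibiotic-saline library 5 included. Oprd1 gave r = 0.54 (permutation p = 0.0082, adjusted 0.0492, rho = 0.50, permutation p = 0.0185, adjusted 0.0740), and 0.34 without the 2 farthest libraries.

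**Figure D4:**
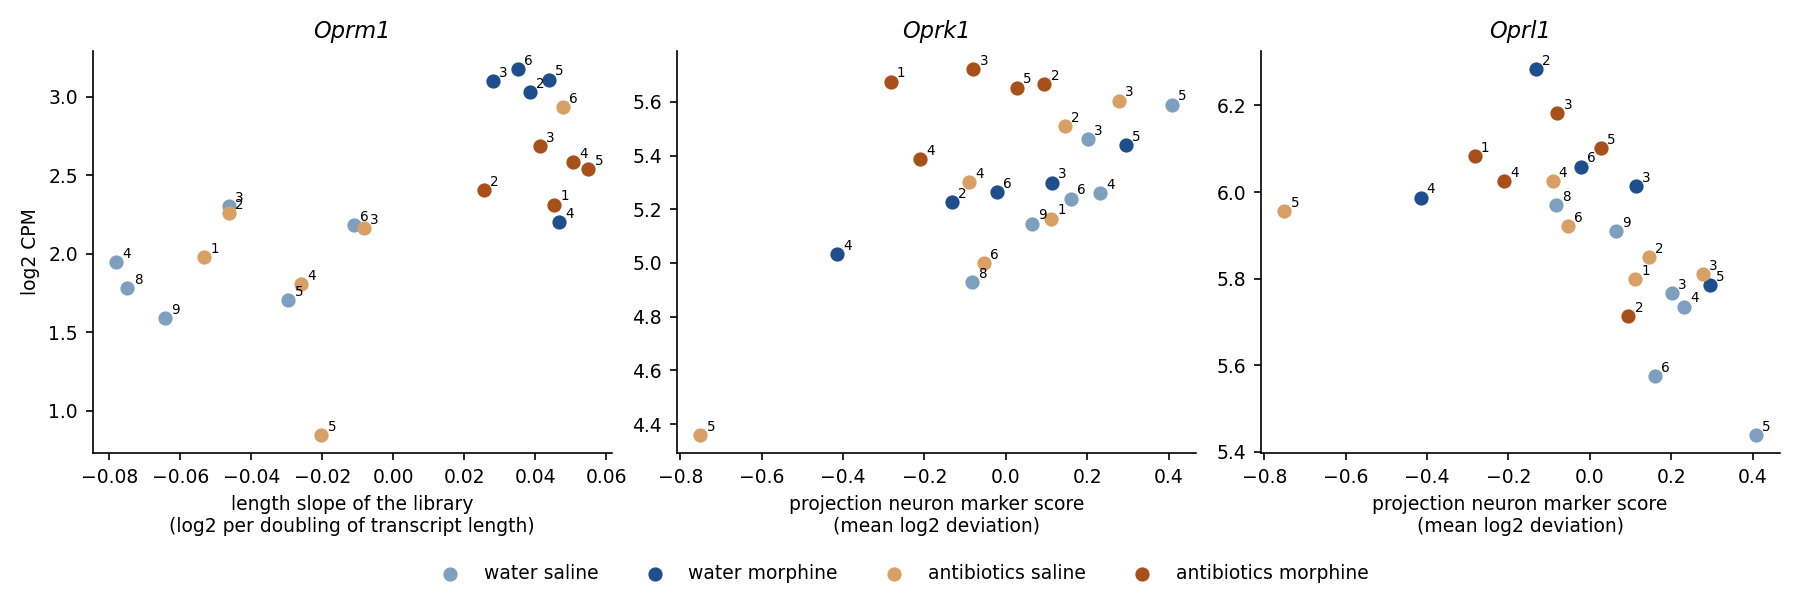
Log2 CPM of Oprm1 (y axis) against the length slope, and of Oprk1 and Oprl1 against the projection neuron marker score (x axes), 1 point per library with its number, coloured by group. Oprl1 falls as the score rises (r = -0.59), and antibiotic-saline library 5 stands alone at a score of -0.75 in the Oprk1 panel.

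The genes whose log2 CPM was most like that of each receptor over the 22 libraries were ranked among 11245 genes with a mean of at least 5 CPM. For Oprm1 these were Ubr1 (r = 0.87), Drd3 (0.87), Macf1 (0.87), Lrp1 (0.86) and Nrxn3 (0.86). Drd3, the dopamine D3 receptor gene of the ventral striatum, kept r = 0.85 on deviations from group means. It was at 7.54 ± 1.14 CPM in the water-saline group (SD, n = 6) and 9.62 ± 2.0 in the water-morphine group (SD, n = 5). That difference did not pass (log2 difference 0.35, adjusted p = 0.170 by edgeR). For Oprd1 they were Cttnbp2 (0.78), Strn (0.77), Sptb (0.77), Add2 (0.75) and Dyrk1b (0.75). For Oprk1 they were Tfdp2 (0.89), Flrt3 (0.88), Tomm20 (0.88), Kdm3a (0.87) and Adamts3 (0.87), and for Oprl1 Pcdhgc4 (0.93), Rragb (0.91), Lpin2 (0.90), Adarb2 (0.90) and Sema3c (0.87). For scale, the top 1% of candidate genes began at r = 0.73 for Oprm1, 0.60 for Oprd1, 0.74 for Oprk1 and 0.75 for Oprl1. These ranks pool the groups, and most of the named genes were not among the 5 most alike on deviations from group means.

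The precursor genes of the receptors' own peptides did not pass in any of the 7 comparisons (0 of 4 by edgeR). Among all genes tested, the share that passed ran from 0.467% (the difference) to 22% (the antibiotic average). With 4 genes, a count of 0 does not set the peptide genes apart from these shares. At an unadjusted p under 0.05 stood Pnoc with morphine under water, with antibiotics under saline and for the difference, and Pdyn with antibiotics under morphine and for the antibiotic average. Penk, which encodes proenkephalin, averaged 1443 ± 145 CPM in the water-saline group (SD, n = 6) and 1209 ± 211 in the water-morphine group (SD, n = 5), and Pdyn, for prodynorphin, 388 ± 41.9 (SD, n = 6) and 378 ± 86.9 (SD, n = 5). Pnoc, for the nociceptin precursor, had the largest difference of the 4 under water, 1.73-fold with an adjusted p of 0.148 by edgeR, and Pomc, for proopiomelanocortin, was at 2.15 ± 0.517 CPM in the water-saline group (SD, n = 6).

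Few genes in lists related to receptor signalling passed. Over 10 lists, from peptides to other Gi/o-coupled receptors, 6 of 123 tested genes passed with morphine under water (4.88%, against 6.58% of all genes) and 13 with morphine under antibiotics (10.6%, against 13.0%). With antibiotics under saline 2 of 123 passed (1.63%, against 1.41%), and under morphine 19 of 123 (15.4%, against 18.0%). These shares were close to or below the background.

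Of 19 G protein subunit genes, 1 passed with morphine under water, 2 with morphine under antibiotics and 3 with antibiotics under morphine, all lower, where 6.58%, 13.0% and 18.0% of all genes passed in either direction. These 3 counts are near or below that background. The averages went the other way. For the morphine average 6 of 19 passed, all lower, where 21.3% of all genes passed in either direction. For the antibiotic average 6 of 19 passed, all lower, where 22% of all genes did. Both shares of the list were above those of all genes, a difference that was not tested. With morphine under water Gnb2 fell to 0.843-fold. With morphine under antibiotics Gnai2, an inhibitory alpha subunit that the receptors use, fell to 0.852-fold and Gng11 to 0.719-fold. With antibiotics under morphine Gng11, Gnai2 and Gnal, the stimulatory alpha subunit of striatal neurons, were at 0.542-fold, 0.877-fold and 0.824-fold. The list medians in these 3 simple comparisons were -0.05, -0.12 and -0.10 on the log2 scale, where the median of all genes was near 0.

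Channel and cyclase genes downstream of the receptors passed singly, in counts that were not tested against the share of all genes. Of all genes, 6.58% passed with morphine under water, 13.0% with morphine under antibiotics and 18.0% with antibiotics under morphine. Cacna1b, the pore subunit of the N-type calcium channel, rose to 1.19-fold with morphine under water (adjusted p = 0.00760, edgeR) and to 1.13-fold under antibiotics (adjusted p = 0.0303, edgeR), as 1 and 2 of 8 calcium channel genes, the other being Cacnb4 at 1.19-fold under antibiotics. None of 4 GIRK channel genes passed in any comparison, although their median with morphine under water was 0.40 on the log2 scale. Adcy9, an adenylyl cyclase, rose to 1.27-fold with morphine under antibiotics and stood at 1.40-fold with antibiotics under morphine, 1 of 8 cyclases higher in each case, while Adcy3 fell to 0.875-fold in the second.

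Of genes that end receptor signals, 1 or 2 of 14 RGS genes and 0 to 2 of 7 receptor kinase and arrestin genes passed in each simple comparison. Over all genes, 6.58% passed with morphine under water and 13.0% with morphine under antibiotics. The shares were 1.41% with antibiotics under saline and 18.0% with antibiotics under morphine. The counts were not tested against those shares. Rgs4, which speeds the shut-off of Gi/o proteins, fell to 0.748-fold with morphine under water (adjusted p = 0.0339, edgeR) and to 0.721-fold with antibiotics under saline (adjusted p = 0.0360, edgeR), in both cases 1 of 14 RGS genes. These 2 comparisons share the water-saline libraries. With morphine under antibiotics Rgs19 fell to 0.725-fold and Rgs17 rose to 1.23-fold, and with antibiotics under morphine Rgs10 fell to 0.744-fold. Of 7 receptor kinase and arrestin genes, Grk5 fell to 0.780-fold with morphine under antibiotics, and Grk5 (0.737-fold) and Arrb1 (0.911-fold) were lower with antibiotics under morphine. None of the 7 passed with morphine under water, and the list medians in the 4 simple comparisons lay between -0.03 and 0.07 on the log2 scale. For the antibiotic average Adrbk2, a receptor kinase gene, was higher (1.46-fold, adjusted p = 0.00668 by edgeR). There 1 of the 7 was higher and 2 were lower, where 22% of all genes passed in either direction. This count was not tested against that share.

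Of 15 tested genes for receptor escort and partner proteins, Slc9a3r1, which encodes the scaffold NHERF1, was lower in all 4 simple comparisons. It was at 0.802-fold and 0.830-fold with morphine under water and antibiotics. With antibiotics under saline and morphine it was at 0.831-fold and 0.860-fold. These comparisons share groups, so the 4 calls are not independent. Reep2 fell to 0.882-fold with morphine under water, Flna, the filamin A gene, rose to 1.22-fold with morphine under antibiotics, and Reep5 was at 0.898-fold with antibiotics under morphine. The list medians lay between -0.04 and 0.02 on the log2 scale. Of 10 genes for peptide processing and secretion, none passed with morphine in either drinking group or with antibiotics under saline. Of all genes 6.58%, 13.0% and 1.41% passed in these comparisons, and 18.0% with antibiotics under morphine. With antibiotics under morphine Scg5 (1.18-fold), Pcsk2, a prohormone convertase (1.23-fold), and Pcsk1n (1.15-fold) were higher and Ece2 was lower (0.643-fold).

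Other receptors of the same coupling class were read beside Oprm1. Of 34 tested, 1 passed with morphine under water, where 6.58% of all genes passed, the serotonin receptor gene Htr1d, which fell to 0.754-fold. With morphine under antibiotics S1pr1 (0.788-fold), Lpar1 (0.771-fold) and Htr1d (0.758-fold) fell, where 13.0% of all genes passed. With antibiotics under morphine S1pr1 (0.728-fold), Grm3 (0.602-fold) and Lpar1 (0.680-fold) were lower and Hrh3, the histamine H3 receptor gene, was higher (1.22-fold). There 1 of the 34 was higher and 4 were lower, where 18.0% of all genes passed. Chrm2, the muscarinic M2 receptor gene, had log2 differences with morphine of 0.52 under water (adjusted p = 0.0574, edgeR) and 0.44 under antibiotics (adjusted p = 0.0884, edgeR). It passed for the morphine average, at 1.40-fold (adjusted p = 0.00590, edgeR). There 1 of the 34 was higher and 4 were lower, where 21.3% of all genes passed. In each of these comparisons the share of the 34 was below that of all genes.

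**Figure D5:**
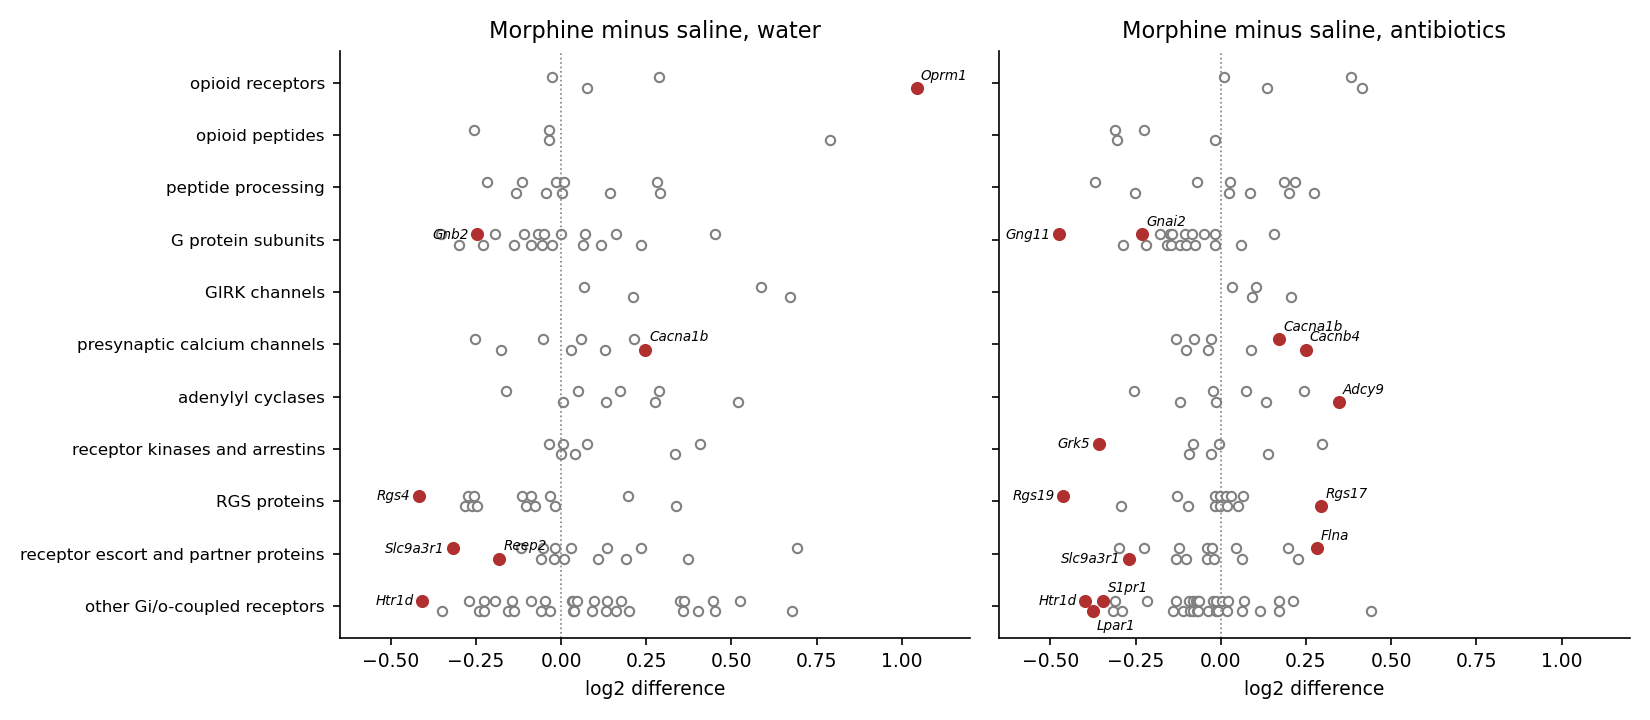
Log2 difference between morphine and saline (x axes) for the receptors and 10 lists of signalling genes (y axis), with water at left and antibiotics at right, 1 point per gene. Filled, named points passed at an adjusted p under 0.05 by edgeR, and Oprm1 at 1.04 is the largest of those under water.

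Cell type markers were read beside the receptor results. Of 13 striosome markers other than Oprm1, none passed with morphine under water and their summed level ran from 1955 to 2215 CPM in water-saline and from 1830 to 2377 CPM in water-morphine libraries. None of 10 cholinergic interneuron markers passed there either (summed level 190 to 265 and 135 to 290 CPM), and of 19 projection neuron markers none passed in any simple comparison. Microglia markers passed as lower for 4 of 15 with morphine under water, where 6.58% of all genes passed in either direction, and for 12 of 15 with morphine under antibiotics, where 13.0% did, with summed levels of 739 to 793 CPM in water-saline and 634 to 711 CPM in water-morphine libraries. With morphine under water, against the same 6.58%, myelin markers passed as lower for 3 of 14 and cortical and septal markers for 1 of 20, Lamp5 at 0.726-fold, with summed levels of 318 to 1040 and 293 to 1553 CPM. Of 13 other interneuron markers, Nos1 rose to 1.33-fold and Sst and Npy fell to 0.809-fold and 0.826-fold with morphine under water. Endothelial markers passed as lower for 2 of 10 there, and none of 7 matrix or 10 astrocyte markers passed. Oprm1 gave r = 0.48 with the cholinergic score over the 22 libraries and -0.47 with the cortical and septal score. With the striosome and projection neuron scores r was 0.43 and 0.27. None passed (adjusted permutation p of 0.0760, 0.0760, 0.105 and 0.280). Without the 2 libraries farthest from each median r was 0.29, -0.52, -0.01 and -0.22, in that order. On deviations from group means it was 0.55, -0.48, 0.46 and 0.65. The part of these markers in the Oprm1 result was not tested beyond these relations and the covariate fit given above.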

How the data were processed

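The deposited values are raw counts of reads per gene, made by the authors, for all 22 libraries. Per the submitters' processing notes FastQC, STAR 2.4.0 and edgeR were used, and cDNA came from a SMARTer kit per the labels' protocols. No source used here gives the counter, its strand setting or the genome build. Entries that name no gene were left out of library sizes: reads outside genes (8.97 to 15.4% of a library), not unique (9.45 to 11.9%) and ambiguous (1.25 to 1.44%). Groups came from the labels.

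Counts were tested with edgeR 4.0.16 in R 4.3.3 (filterByExpr, TMM factors, robust quasi-likelihood fit) in 1 model of the 4 groups, with Benjamini-Hochberg adjustment over 14564 genes at a threshold of 0.05. Intervals cover 95%, and SE is the log2 difference over the root of F. Log2 CPM for correlations used a prior count of 2. Correlation tests drew 100000 permutations. The scripts were tested on simulated data. Scores are mean log2 deviations of a list's genes from their mean over libraries. Lengths came from GENCODE (95.4% of genes tested matched). Alternatives used limma 3.58.1 and DESeq2 1.42.0. Library pairs of 1 group differed by 3.19 to 22.9 times sampling variance, so none was the same library sequenced again. Separate libraries made from 1 animal are not excluded by this measure.

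Genes named were the 4 receptors, their 5 most alike genes, up to 4 passing members per list and comparison (smallest p first), the peptide genes and overlapping genes. The members and lists were chosen with earlier results of these data known.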

Additional observations from a re-analysis of the deposited data

Results flagged for a closer look

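Among the 16 sets of receptor values by group, 2 held a library far from the others, judged by its gap to the nearest value as a share of the group's range, a rule that flags about 1 group in 20 by chance. Water-morphine library 4 had 4.43 CPM of Oprm1, with the next value at 7.997, a gap of 0.805 of the range where 0.71 is the limit for 5 libraries. Antibiotic-morphine library 4 had 41.6 CPM of Oprk1, with the next at 50.1, a gap of 0.775 of the range.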

How the results depend on the processing

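Log2 differences are given with edgeR's adjusted p unless another tool is named, and the cause of a change with a setting was not tested. Of 848 comparisons with the values reported, 774 kept direction and side of the threshold. With the length slope as covariate, no call held: Oprm1 with morphine under water was 0.41 (adjusted p = 0.854), and the morphine averages were 0.19 for Oprm1 (0.878) and 0.29 for Oprl1 (0.544). Signs turned for Oprm1 with morphine under antibiotics (-0.024) and antibiotics under saline (-0.065), Oprk1 with morphine under water (0.0016), Oprl1 with antibiotics under morphine (0.0038), and Oprd1 in all 7 comparisons (-0.25, -0.21, -0.046, -0.0091, 0.037, -0.23 and -0.027). With the cortical and septal score, Oprk1 passed with morphine under antibiotics (0.46, adjusted p = 0.0198) and antibiotics under morphine (0.53, 0.0130), and signs turned for Oprl1 with antibiotics under morphine (0.021) and the Oprm1 antibiotic average (0.022). With the share outside genes, Oprm1 passed with antibiotics under morphine (-0.65, adjusted p = 0.0298), and signs turned for Oprm1 with antibiotics under saline (-0.11) and for Oprd1 (-0.0047, -0.0072, -0.050 and -0.029). In fits of 2 groups alone Oprk1 passed with antibiotics under morphine (0.36, 0.00736).

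The labels state no pairing by replicate number. Deviations of 17 same-number pairs correlated at -0.48 to 0.35, 6 of them over 0.1, which does not exclude a shared batch. With the number as a replicate block, Oprm1 with morphine under water was 0.93 (adjusted p = 0.0550), Oprl1 with antibiotics under morphine 0.0023, and genes called fell from 959 to 281 with morphine under water, from 205 to 105 with antibiotics under saline and from 68 to 10 for the difference. By limma-voom Oprk1 passed with morphine under antibiotics (0.46, 0.0411). With quality weights Oprl1 passed with morphine under water (0.29, 0.0434) and Oprm1 with antibiotics under morphine (-0.49, 0.0441), with Oprd1 at -0.0013 for morphine under antibiotics and -0.013 for antibiotics under morphine. By DESeq2 Oprl1 passed with morphine under water (0.29, 0.0340) and Oprk1 under antibiotics (0.41, 0.0424). Oprl1 with antibiotics under morphine was 0.0013 by voom and by upper-quartile factors and 0.0032 by library size alone. Without antibiotic-saline 6 and antibiotic-morphine 4, Oprm1 with antibiotics under saline was -0.046 and the Oprd1 difference 0.025. Without water-morphine 4 and antibiotic-saline 5 and 6, chosen after the values were seen, these passed: Oprm1 with morphine under antibiotics (0.46, 0.0363) and antibiotics under morphine (-0.61, 0.00234), Oprk1 with antibiotics under morphine (0.31, 0.0392) and its antibiotic average (0.22, 0.0426). Signs turned there for Oprk1 with morphine under water (0.027) and antibiotics under saline (0.12) and Oprd1 with antibiotics under morphine (-0.045).

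Leaving out each library in turn, Oprm1 ran from 0.98 to 1.19 with morphine under water and passed in 11 of 11 fits. With morphine under antibiotics the ranges were 0.22 to 0.63 for Oprm1, 0.30 to 0.51 for Oprk1 and -0.066 to 0.081 for Oprd1. With morphine under water they were 0.23 to 0.34 for Oprl1 and -0.090 to 0.039 for Oprk1. With antibiotics under saline they were -0.046 to 0.37 for Oprm1 and -0.17 to 0.046 for Oprk1, and under morphine -0.060 to 0.083 for Oprd1 and -0.059 to 0.066 for Oprl1. The Oprd1 difference ran from -0.14 to 0.0069 and the Oprl1 morphine average from 0.18 to 0.25.

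Genes called changed by over 1.5 times in these fits. With the length slope 0, 141 and 46 passed with morphine under water, morphine under antibiotics and antibiotics under saline, against 959, 1900 and 205, and 0 for the morphine average, against 3107. For antibiotics under saline, 345 passed with the cortical score, 100 with the share outside genes, 67 in the fit of 2 groups, 417 by DESeq2 and 74 and 67 without the 2 and the 3 libraries. The fit of 2 groups called 1187 with morphine under antibiotics. For the difference, against 68, 159 passed with the cortical score, 109 with quality weights, 185 by DESeq2 and 154 without the 3 libraries. Over the union of exons, levels per kilobase over all libraries were 0.638 for Oprm1, 4.42 for Oprk1 and 16.1 for Oprl1, against 2.12, 8.66 and 20.2. On deviations from group means, the 5 most alike genes shared 1 with those named for Oprm1, Oprd1 and Oprk1 and 2 for Oprl1. Depth limits Oprm1 most, at 15 to 112 reads a library.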
